A study of Homo sapiens with 18 samples.

Results

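The 10 genes studied here code for the subunits of Polycomb repressive complex 2 (PRC2): EZH2, EZH1, EED, SUZ12, RBBP4, RBBP7, JARID2, AEBP2, MTF2 and PHF19. They were chosen by name, as the rows of the count table listed under these symbols, and all 10 were found among the 28277 genes with a complete record. The RNA came from cells labelled OVCAR3-KRAB, given as the established ovarian cancer line OVCAR3 stably expressing dCas9-KRAB, a cleavage-dead Cas9 carrying the KRAB repressor domain. All groups shared this construct, and each carried 1 of 3 guide RNAs: sgCtl, a control directed to a Gal4 promoter, or sgXIST7 or sgXIST9, the 2 test guides. Clonal cells of each guide were kept in normoxia or for 24 h in a chamber with 1% oxygen (hypoxia), with 3 replicates in each of the 6 groups and 18 libraries in all. Because the cells were clonal, a difference between guides cannot be told apart from a difference between clones.

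PRC2 is the enzyme complex that places methyl groups on lysine 27 of histone H3, a mark of silenced genes. EZH2 or its paralog EZH1 provides the catalytic SET domain, EED binds the mark and stimulates the enzyme, SUZ12 is the scaffold, and RBBP4 or RBBP7 binds histones. Accessory subunits define subtypes of the complex: a Polycomb-like protein such as MTF2 or PHF19 marks PRC2.1, while JARID2 and AEBP2 mark PRC2.2. EZH2 is typically abundant in dividing cells and EZH1 in resting ones, and EZH2 is studied as a drug target in ovarian and other cancers.

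Total counts per library ranged from 11794375 to 24906936, and the 10 genes took between 0.0768% and 0.143% of them. All 10 genes passed the filter on low counts and were tested together with the others, 14938 genes in all. The treatment was visible in every clone, since 8 of 10 hypoxia-induced genes were higher in hypoxia in sgCtl, 9 in sgXIST7 and 9 in sgXIST9. The 3 hypoxia libraries numbered 3, 1 for each guide, deviated together. Their deviations from the group means correlated with each other (r from 0.380 to 0.566). With those of numbers 1 and 2 of the other guides, r ran from -0.566 to 0.0376. Deviations cancel out within a group, so low r with the other numbers follows in part from the first values. The hypoxia libraries numbered 2 of sgCtl and sgXIST9 also correlated (r = 0.520). Results that change without the hypoxia libraries numbered 3 are given both ways. Levels are given in CPM, the usual count per fixed total of the TMM-normalized library. Of the markers of the cell type, EPCAM was present at 156 to 251 CPM and PAX8 at 0.828 to 5.94 CPM, but MUC16 did not exceed 0.182 CPM and WT1 did not exceed 0.695 CPM in any library, and the collagen gene COL3A1 stood at 356 to 1060 CPM. The near absence of MUC16 and WT1, markers of serous ovarian cancer, goes against the label, and the cells are called here by their label only. The summed markers of ovarian cancer epithelium, EPCAM among them, stood at 297 to 517 CPM, though 2 to 4 of these markers had no counts in each library. Summed fibroblast markers stood at 360 to 1062 CPM, close to the range of COL3A1 alone, so that the other fibroblast markers added little. Summed leukocyte markers did not exceed 0.595 CPM and summed endothelial markers did not exceed 0.684 CPM.

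On hg38, EZH2 lies on the minus strand of chromosome 7 (148807383 to 148884291), EZH1 on the minus strand of chromosome 17 (42700275 to 42745040) and JARID2 on the plus strand of chromosome 6 (15246069 to 15522042). SUZ12 is also on chromosome 17 (31937007 to 32001038), RBBP4 (32651208 to 32686211) and MTF2 (93079235 to 93139081) are on chromosome 1, and EED is on chromosome 11 (86244384 to 86278810). AEBP2 is on chromosome 12 (19439492 to 19522227), PHF19 on chromosome 9 (120855651 to 120894896) and RBBP7 on chromosome X (16844341 to 16870362). Counts were assigned to exons, and 50-base windows of the exons that occur once in the genome made up 90.2% of RBBP4, 93.1% of SUZ12, 98.1% of EZH2 and at least 98.8% of each of the other 7 genes. SUZ12 has a partial copy, SUZ12P1, which held 315 to 635 counts per library, so that its reads could be divided between the 2 rows. The exons of RBBP4 overlap those of SYNC over 2160 bases and the exons of RBBP7 overlap those of TXLNG over 179 bases, both on opposite strands, and the strand setting of the counting is not given in the sources used here.

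The promoters of the catalytic paralogs EZH2 and EZH1 and of JARID2, which rose most in hypoxia, are shown to place the sequences beside the values. Each window runs from 250 bases before to 50 bases after a RefSeq start site (GRCh38.p14) and is printed 5′ to 3′ on the strand of the gene. Capitals mark matches on either strand to the core of the hypoxia-inducible factor element (ACGTG or GCGTG), to 3 versions of the E2F element (TTTGGCGC, TTTCCCGC, TTTCGCGC) or to the cAMP response element (TGACGTCA).
EZH2, first start site, chr7:148884242-148884541, minus strand: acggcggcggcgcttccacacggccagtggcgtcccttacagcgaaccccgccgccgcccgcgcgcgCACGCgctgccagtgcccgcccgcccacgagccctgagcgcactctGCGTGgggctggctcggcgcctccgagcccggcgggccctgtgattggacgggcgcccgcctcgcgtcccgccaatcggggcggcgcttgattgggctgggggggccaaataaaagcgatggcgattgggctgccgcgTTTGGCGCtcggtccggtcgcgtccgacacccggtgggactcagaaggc
EZH1, chr17:42744991-42745290, minus strand: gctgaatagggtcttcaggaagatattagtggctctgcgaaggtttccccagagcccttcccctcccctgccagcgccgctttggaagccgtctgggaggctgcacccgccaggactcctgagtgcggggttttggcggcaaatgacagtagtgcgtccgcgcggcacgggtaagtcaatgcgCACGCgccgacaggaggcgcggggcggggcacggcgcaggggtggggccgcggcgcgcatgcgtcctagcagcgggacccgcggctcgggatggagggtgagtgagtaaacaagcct
JARID2, first start site, chr6:15245819-15246118, plus strand: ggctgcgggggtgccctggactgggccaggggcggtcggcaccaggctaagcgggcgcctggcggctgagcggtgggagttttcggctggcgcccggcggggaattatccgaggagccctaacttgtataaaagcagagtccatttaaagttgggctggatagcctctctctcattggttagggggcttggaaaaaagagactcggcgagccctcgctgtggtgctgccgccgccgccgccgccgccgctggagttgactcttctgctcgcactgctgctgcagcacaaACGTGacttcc
JARID2, second start site, chr6:15248605-15248904, plus strand: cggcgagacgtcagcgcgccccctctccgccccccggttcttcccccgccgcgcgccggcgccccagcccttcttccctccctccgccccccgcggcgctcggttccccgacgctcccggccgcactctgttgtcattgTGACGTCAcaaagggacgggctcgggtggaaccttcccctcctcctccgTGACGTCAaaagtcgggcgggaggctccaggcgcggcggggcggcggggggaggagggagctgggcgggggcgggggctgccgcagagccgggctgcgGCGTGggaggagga
The EZH2 window held 2 matches to the hypoxia core and 1 to the E2F element. A second EZH2 window, not printed, held 2 matches to the hypoxia core and 0 to the E2F element. The EZH1 window and both JARID2 windows held 1 match each to the hypoxia core, and the second JARID2 window held 2 cAMP response elements. Over the 15 RefSeq windows of the 10 members, 11 held the hypoxia core, 4 an E2F element and 1 a cAMP response element, where 48.4%, 2.74% and 1.85% of all 35116 promoter windows did. The hypoxia core is thus frequent in promoters at large, and a match can overlap another, as the letters CACGTG match on both strands. A match is a description of the letters only.

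In control cells in normoxia, transcript levels of the subunits covered a wide range. Where genes are compared with each other, levels are given as CPM per kilobase of exon. Per kilobase, RBBP7 stood at 144 ± 5.81 (SD, n = 3), EZH2 at 74.0 ± 4.18 and RBBP4 at 34.7 ± 2.56. SUZ12 followed at 26.1 ± 1.91, MTF2 at 19.7 ± 0.970, PHF19 at 17.97 ± 0.795, EED at 15.5 ± 1.302, AEBP2 at 9.44 ± 0.701, EZH1 at 7.85 ± 0.232 and JARID2 at 4.49 ± 0.321 CPM per kilobase. Neighbours in this order did not overlap between libraries, except MTF2 and PHF19. The catalytic transcripts were thus mostly EZH2, and JARID2 was the least abundant subunit. The exon length is the union of all listed isoforms, which lowers the value of genes with many unused exons.

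**Figure D1:**
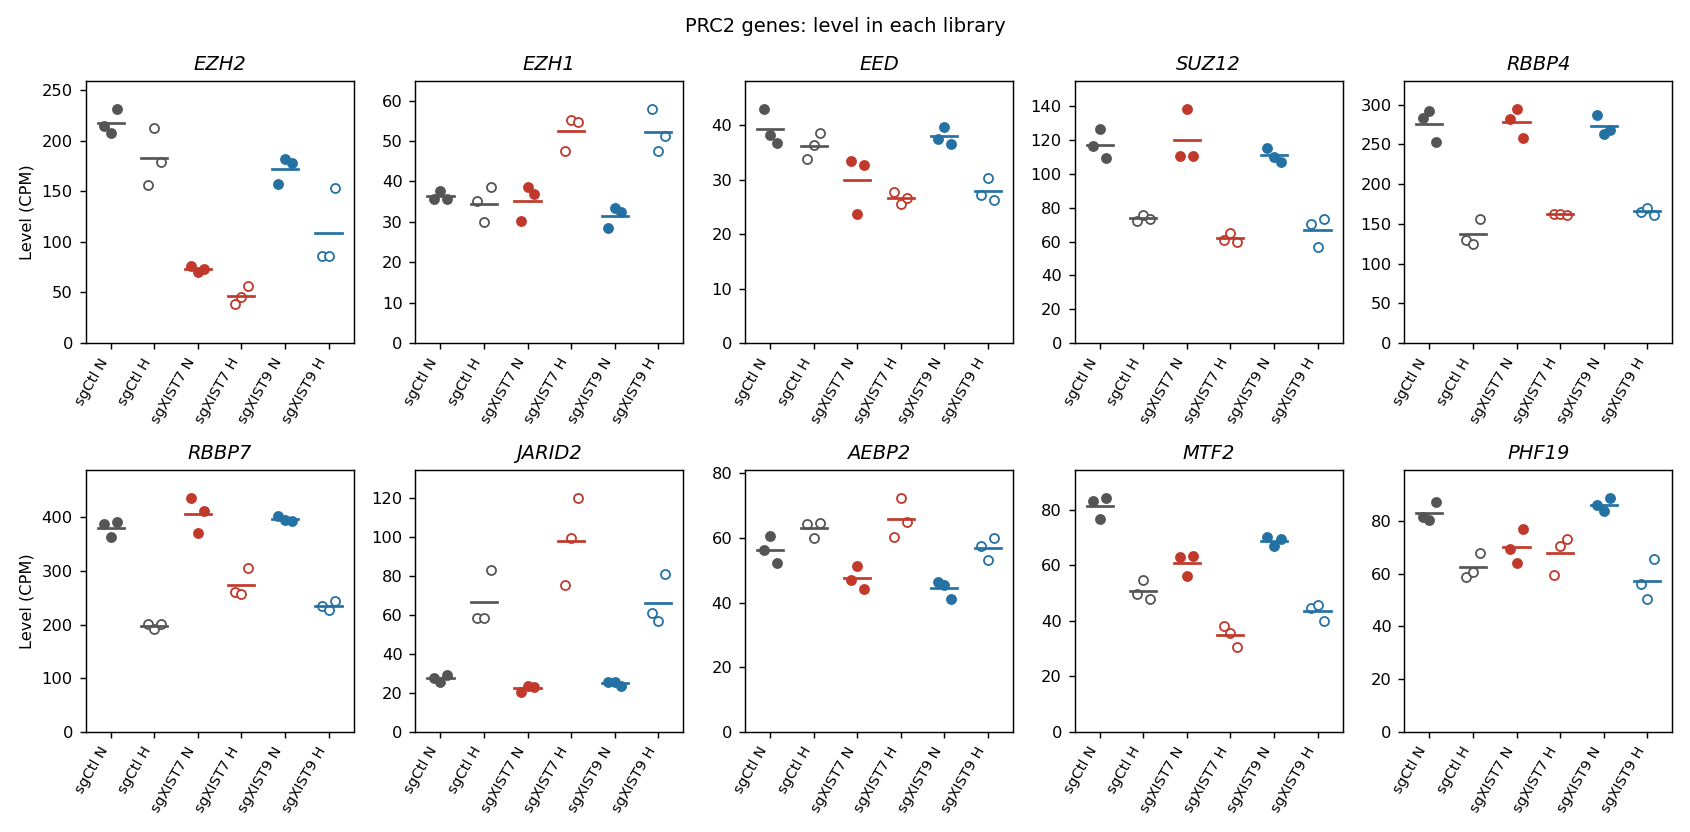
Level of each PRC2 gene in each library. The vertical axis is the level in CPM, starting at 0 and scaled for each gene, and the horizontal axis lists the 6 groups (N, normoxia, filled; H, 1% oxygen for 24 h, open). Points are libraries and bars are means of 3. EZH2 was lowest in the sgXIST7 libraries (38.3 to 76.3 CPM), and JARID2 was higher in every hypoxia library (56.6 to 120 CPM) than in any normoxia library (20.6 to 29.3 CPM).

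In normoxia, EZH2 was the subunit that differed most between the clones. In the sgCtl libraries it stood at 214, 207 and 231 CPM, in the sgXIST7 libraries at 76.3, 70.3 and 73.2 CPM, and in the sgXIST9 libraries at 158, 182 and 178 CPM. The 3 groups did not overlap, with sgXIST7 far below the others and sgXIST9 just below sgCtl. EZH2 fell 2.97-fold in sgXIST7 against sgCtl (log2 fold change -1.57 ± 0.19 SE, adjusted p = 1.1e-05) and was 2.36-fold lower in sgXIST7 than in sgXIST9 (log2 fold change -1.24 ± 0.19 SE, adjusted p = 3.0e-04). In sgXIST9 against sgCtl, the log2 fold change was -0.34 ± 0.19 SE (95% interval -0.73 to 0.06, adjusted p = 0.24), which did not pass the threshold of 0.01. With 3 libraries against 3, the exact two-sided permutation test cannot give a p below 0.1, the value it gave for EZH2 in each of these comparisons.

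MTF2, the Polycomb-like subunit that recognizes methylated lysine 36 and CpG-rich DNA, was the only other member past the threshold in sgXIST7 in normoxia. It stood at 82.9, 76.7 and 84.2 CPM in sgCtl, at 62.8, 56.1 and 63.3 CPM in sgXIST7 and at 70.2, 66.8 and 69.3 CPM in sgXIST9. Both sgXIST clones were below every sgCtl library, with a log2 fold change of -0.42 ± 0.10 SE (adjusted p = 0.0053) in sgXIST7 and of -0.24 ± 0.10 SE (adjusted p = 0.098) in sgXIST9. The call in sgXIST7 was not kept when any of 5 of the 6 libraries compared was left out, all but sgCtl replicate 2, with adjusted p-values up to 0.0288. Under the filter that kept every gene with 1 count in any library, its adjusted p was 0.0143.

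Thus 2 of 10 members fell in sgXIST7 against sgCtl in normoxia and 0 rose, against 6.1% of all genes lower and 7.39% higher. Of the other 8 members, EED gave -0.39 ± 0.12 (adjusted p = 0.031), AEBP2 -0.24 ± 0.10, PHF19 -0.25 ± 0.11 and JARID2 -0.29 ± 0.18 on the log2 scale, and SUZ12, RBBP4, RBBP7 and EZH1 lay between -0.05 and 0.10. In sgXIST9 against sgCtl, 0 of 10 members passed with edgeR and also with DESeq2, and 2 members, AEBP2 and MTF2, had an unadjusted p under 0.05; over all genes 6.51% were higher and 6.6% lower. When only these 2 groups were fitted, 3 members were lower in sgXIST9: EZH2 (-0.33, adjusted p = 0.0017), AEBP2 (-0.33, adjusted p = 0.0042) and MTF2 (-0.23, adjusted p = 0.0050). Between the sgXIST clones, EZH2 was the 1 member past the threshold, against 2.04% of all genes lower and 2.93% higher in sgXIST7.

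EZH2 was not alone on its chromosome in this difference. Of the 54 tested genes that start within 5 Mb of EZH2, 49 were lower in sgXIST7 than in sgCtl in normoxia, 28 of them past the threshold, and their median log2 fold change was -0.84. In sgXIST9 against sgCtl, the same 54 genes had a median of 0.07, with 0 lower and 7 higher past the threshold. The lower stretch reached from about 120 Mb of chromosome 7 to its end: 152 of 171 genes were lower in sgXIST7, 81 past the threshold, with a median of -0.85, while the 550 genes before it had a median of 0.06. EZH2 lay below this level, since 4 of the 54 neighbours had a fold change as low or lower. By library, the median log2 ratio of the 54 neighbours to the sgCtl mean was -0.80, -0.69 and -0.74 in sgXIST7 in normoxia and 0.03, 0.18 and 0.09 in sgXIST9, so that all libraries of the clone shared the shift. The part of chromosome 7 before 120 Mb was not uniform. There, most of the 63 tested genes from 70 to 80 Mb were higher than in sgCtl in both sgXIST clones. In normoxia 6 were lower in sgXIST7 and 10 in sgXIST9, and in hypoxia 8 were lower in each. The medians of the 63 genes were 0.89 in sgXIST7 and 0.77 in sgXIST9 in normoxia, and 0.88 and 0.77 in hypoxia. The window, the stretch and this region were chosen after the values were seen. DNA copy number was not measured in these libraries, and the part of the stretch in the EZH2 result was not tested.

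**Figure D2:**
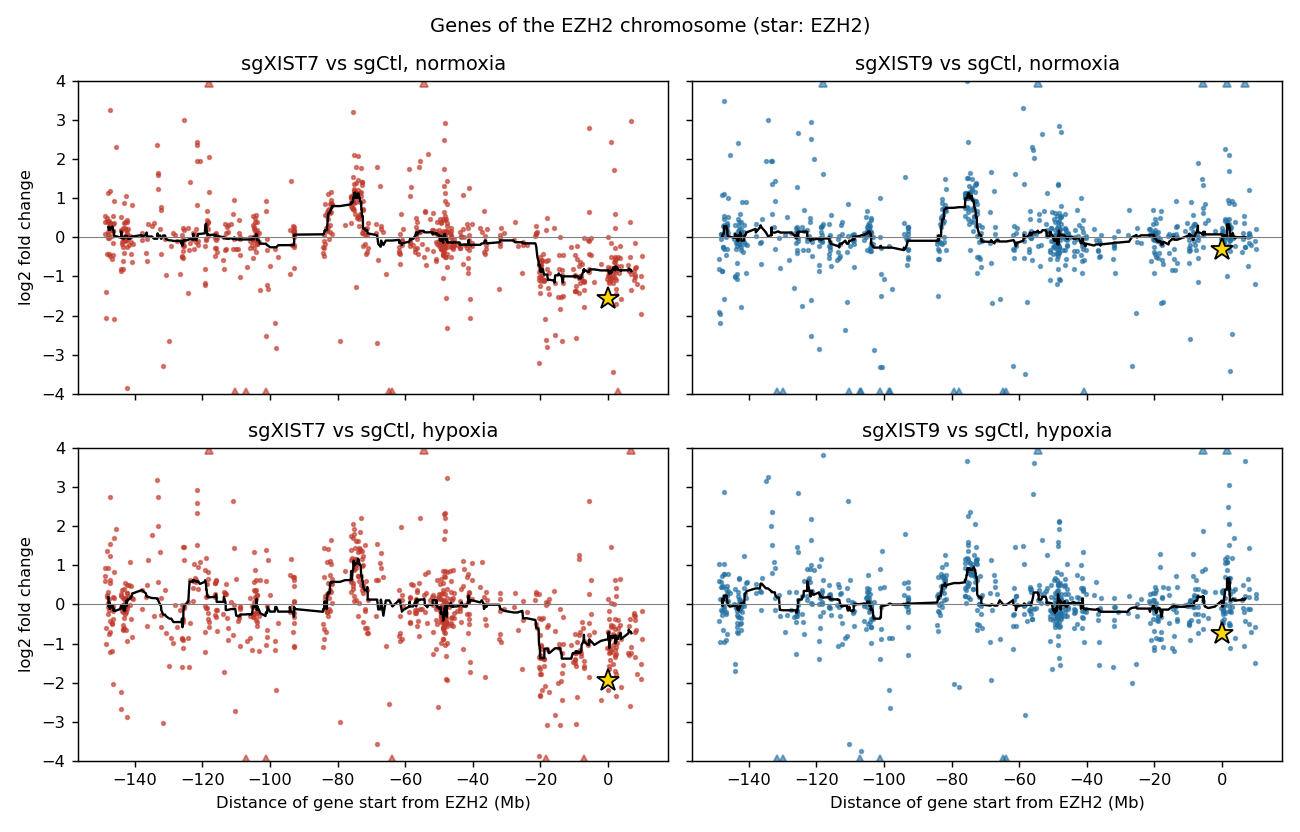
Log2 fold change of the tested genes of chromosome 7 against the distance of their start from EZH2 in Mb, for both sgXIST clones against sgCtl in normoxia and hypoxia. Points are genes, triangles are genes beyond 4 on the log2 axis, the line is the running median of 25 genes and the star is EZH2. In sgXIST7 the line is low around EZH2 in both oxygen conditions (median of the genes within 5 Mb -0.84 and -0.83), and in sgXIST9 it lies higher (0.07 and 0.22) while the star lies at -0.34 in normoxia and -0.76 in hypoxia.

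The surroundings of the other members were closer to 0 in normoxia. Within 5 Mb of each of the other 9 genes, the median log2 fold change of the neighbours in normoxia lay between -0.15 (JARID2) and -0.00048 (AEBP2) in sgXIST7 and between -0.22 (RBBP7) and 0.07 (AEBP2) in sgXIST9. In hypoxia in sgXIST7 the neighbours of JARID2 (-0.41) and EED (-0.36) were lower as well. For MTF2, which fell in sgXIST7, the median of its 50 neighbours was -0.05.

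The genes whose pattern over the 18 libraries was most like that of EZH2 lay mostly in the same stretch. Pearson's r of log2 CPM was 0.949 for TMEM209, 0.938 for UBE3C and 0.937 for KLHDC10, all 3 on chromosome 7 beyond 120 Mb, and 0.929 for MAP4K4 on chromosome 2, among 10701 genes compared. The remaining gene of the 5 most like EZH2 is not reported here. TMEM209, a membrane protein of the nuclear envelope, stood at 73.5 ± 6.02 CPM in sgCtl in normoxia, 17.4 ± 0.466 in sgXIST7 and 55.4 ± 2.55 in sgXIST9. Guide, oxygen and depth differ between the libraries, so these values describe likeness only.

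In hypoxia, EZH2 was lower than in sgCtl in both sgXIST clones. EZH2 stood at 156, 213 and 179 CPM in sgCtl, at 38.3, 45.9 and 56.6 CPM in sgXIST7 and at 86.1, 86.2 and 153 CPM in sgXIST9. The highest sgXIST9 library, number 3, was just below the lowest sgCtl library. EZH2 fell 3.90-fold in sgXIST7 (log2 fold change -1.97 ± 0.20 SE, adjusted p = 8.8e-07) and 1.69-fold in sgXIST9 (-0.76 ± 0.19 SE, adjusted p = 0.0060), and was 2.31-fold lower in sgXIST7 than in sgXIST9 (-1.21 ± 0.19 SE, adjusted p = 3.6e-04). Without the 3 hypoxia libraries numbered 3, the fall in sgXIST9 was larger, at -1.10 ± 0.13 (adjusted p = 7.0e-06). It missed the threshold without sgCtl replicate 2 (adjusted p = 0.0346), sgXIST9 replicate 1 (0.0361) or sgXIST9 replicate 2 (0.0286), and in a fit of these 2 groups alone (0.10). The 54 neighbours of EZH2 had a median of 0.22 in sgXIST9 against sgCtl in hypoxia, where 2 had a fold change as low as that of EZH2, and of -0.83 in sgXIST7.

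EZH1, the paralog with weaker methyltransferase activity, moved the opposite way. In hypoxia it stood at 35.1, 30.0 and 38.5 CPM in sgCtl, at 47.6, 55.1 and 54.8 CPM in sgXIST7 and at 57.9, 47.7 and 51.2 CPM in sgXIST9. Every sgXIST library was above every sgCtl library, by 0.61 ± 0.12 SE on the log2 scale in sgXIST7 (adjusted p = 9.3e-04) and by 0.60 ± 0.12 SE in sgXIST9 (adjusted p = 0.0014). The sgXIST clones did not differ in EZH1 beyond their spread (0.01 ± 0.12, 95% interval -0.25 to 0.26). Fitted without the other 4 groups, EZH1 had an adjusted p of 0.0251 in sgXIST7 and 0.0404 in sgXIST9. Without sgCtl replicate 2 or sgXIST9 replicate 1, the adjusted p in sgXIST9 was 0.0105 and 0.0114.

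RBBP7, a histone-binding subunit shared with deacetylase and remodelling complexes, was higher in sgXIST7 than in sgCtl in hypoxia. It stood at 200, 191 and 201 CPM in sgCtl, at 260, 256.5 and 306 CPM in sgXIST7 and at 235, 227 and 245 CPM in sgXIST9. The 3 groups did not overlap, with sgXIST9 between the others, and the log2 fold change was 0.47 ± 0.09 SE in sgXIST7 (adjusted p = 6.2e-04) and 0.25 ± 0.09 SE in sgXIST9 (adjusted p = 0.045). MTF2 fell by 0.55 on the log2 scale in sgXIST7 (SE 0.10, adjusted p = 4.4e-04), from 47.8 to 54.8 CPM in sgCtl to 30.6 to 38.1 CPM. EED fell by 0.44 (SE 0.12, adjusted p = 0.0091), from 33.8 to 38.6 CPM to 25.5 to 27.8 CPM, a call close to the threshold. It was lost without any single library of the 2 groups, with adjusted p-values up to 0.038, without the libraries numbered 3 (0.0319), without the filter on low counts (0.0231) and in a fit of these 2 groups alone (0.0552).

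In all, 2 members rose (EZH1, RBBP7) and 3 fell (EZH2, MTF2, EED) in sgXIST7 against sgCtl in hypoxia, where 13.9% of all genes were higher and 13.7% lower. In a fit of these 2 groups alone, 1 member, EZH2, passed, and the adjusted p of RBBP7 and MTF2 were 0.0379 and 0.0333. In sgXIST9, 1 member rose (EZH1) and 1 fell (EZH2), where 9.65% of all genes were higher and 8.24% lower. EED missed the threshold there, at -0.37 ± 0.12 against sgCtl (adjusted p = 0.031), though every sgXIST9 library was below every sgCtl library. A fit of these 2 groups alone called 0 members. Between the sgXIST clones in hypoxia, EZH2 was the 1 member past the threshold, against 4.21% of all genes higher and 4.22% lower in sgXIST7, and its adjusted p in a fit of these 2 groups alone was 0.0313. JARID2 stood at 0.56 ± 0.17 in sgXIST7 against sgCtl (adjusted p = 0.015), and passed with DESeq2 (0.0095), without the filter on low counts (0.0084) and without the libraries numbered 3 (0.0010). Against sgXIST9 it was next after EZH2, at 0.57 ± 0.17 (adjusted p = 0.030), and passed without the libraries numbered 3 (0.57 ± 0.12, adjusted p = 0.0028). RBBP4 was higher in both sgXIST clones without these libraries, by 0.36 (adjusted p = 0.0066) and 0.40 (adjusted p = 0.0045), compared with 0.25 and 0.28 (adjusted p = 0.051 and 0.040) with them.

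**Figure D3:**
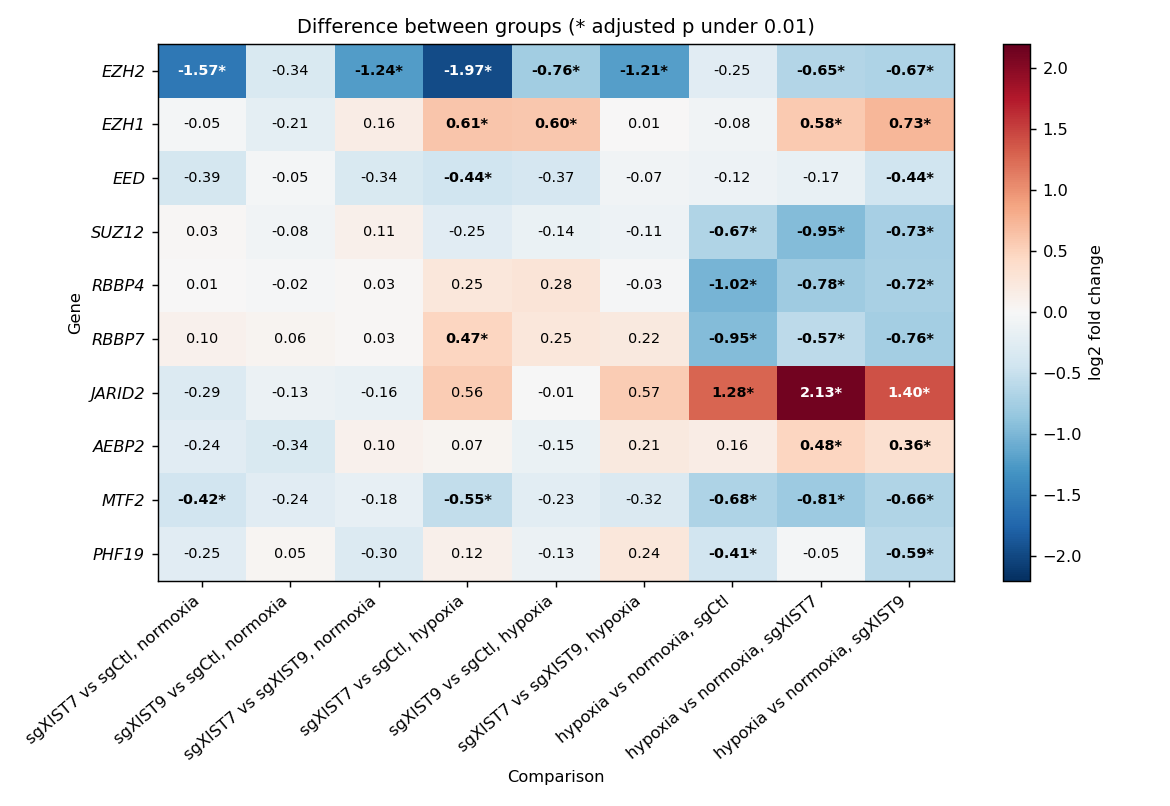
Log2 fold change of the 10 PRC2 genes (rows) in the 9 comparisons of groups (columns), from edgeR. Red is higher and blue is lower in the group named first, and an asterisk marks an adjusted p under 0.01. EZH2 was lower in every comparison of sgXIST7 with another clone (-1.97 to -1.21), and JARID2 was higher in hypoxia in each clone (1.28 to 2.13).

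Hypoxia itself was accompanied by changes in most subunits in every clone. JARID2, which helps recruit PRC2.2 and binds ubiquitylated histone H2A, rose most. It stood at 27.6, 25.4 and 29.3 CPM in normoxia and at 58.3, 58.5 and 83.0 CPM in hypoxia in sgCtl, at 20.6, 23.7 and 22.9 against 75.0, 99.1 and 120 CPM in sgXIST7, and at 25.6, 25.7 and 23.6 against 60.8, 56.6 and 81.1 CPM in sgXIST9. No hypoxia library overlapped a normoxia library in any clone, and the third hypoxia library was the highest each time. The rise was 2.42-fold in sgCtl (log2 fold change 1.28 ± 0.18 SE, adjusted p = 1.6e-05), 4.37-fold in sgXIST7 (2.13 ± 0.18 SE, adjusted p = 3.9e-08) and 2.65-fold in sgXIST9 (1.40 ± 0.18 SE, adjusted p = 4.5e-06). Without the libraries numbered 3 the log2 fold changes were 1.09, 1.97 and 1.24.

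The scaffold and the histone-binding subunits fell in hypoxia in all 3 clones. SUZ12 stood at 109 to 126 CPM in normoxia and 72.3 to 75.5 CPM in hypoxia in sgCtl, at 111 to 138 against 59.9 to 65.2 CPM in sgXIST7 and at 107 to 116 against 57.0 to 73.1 CPM in sgXIST9. Its log2 fold changes were -0.67 ± 0.11, -0.95 ± 0.11 and -0.73 ± 0.11 SE in sgCtl, sgXIST7 and sgXIST9. RBBP4 fell by 1.02, 0.78 and 0.72 on the log2 scale in sgCtl, sgXIST7 and sgXIST9 (SE 0.10 each), from 253 to 292 CPM in sgCtl in normoxia to 124 to 156 CPM in hypoxia. RBBP7 fell by 0.95, 0.57 and 0.76 (SE 0.09 each), from 363 to 391 CPM to 191 to 201 CPM in sgCtl. These 3 genes were lower in hypoxia without overlap of libraries in each clone, with adjusted p-values of 9.5e-05 or below.

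Among the accessory subunits of the member list, MTF2 fell in hypoxia in every clone. PHF19 fell in sgCtl and sgXIST9 only, and AEBP2 rose in sgXIST7 and sgXIST9 only. MTF2 fell by 0.68, 0.81 and 0.66 in sgCtl, sgXIST7 and sgXIST9 (SE 0.10 each, adjusted p = 3.4e-05, 3.5e-06 and 3.2e-05). PHF19, another Polycomb-like subunit, fell by 0.41 in sgCtl (SE 0.11, adjusted p = 0.0057) and by 0.59 in sgXIST9 (SE 0.11, adjusted p = 3.0e-04), and gave -0.05 ± 0.11 (95% interval -0.29 to 0.19) in sgXIST7, with 64.1 to 76.9 CPM in normoxia and 59.4 to 73.3 CPM in hypoxia. AEBP2, a zinc-finger protein that stabilizes PRC2.2, rose by 0.48 ± 0.10 in sgXIST7 (adjusted p = 6.1e-04) and by 0.36 ± 0.10 in sgXIST9 (adjusted p = 0.0059), and gave 0.16 ± 0.10 (95% interval -0.05 to 0.37) in sgCtl. The call of PHF19 in sgCtl was lost without any 1 of 5 of its 6 libraries, all but hypoxia replicate 3, with adjusted p-values up to 0.0305, under RLE normalization (0.0103) and in a fit of these 2 groups alone (0.0230). The call of AEBP2 in sgXIST9 was lost without any 1 of 5 libraries, all but hypoxia replicate 2, with values up to 0.0389, without the libraries numbered 3 (0.0138), under RLE normalization (0.0101), without the filter on low counts (0.0184) and in a fit of these 2 groups alone (0.0153).

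With these changes, the makeup of the accessory transcripts among the members shifted. JARID2 and AEBP2 together made up 27.03% ± 1.40 (SD, n = 3) of the summed CPM per kilobase of JARID2, AEBP2, MTF2 and PHF19 in sgCtl in normoxia and 45.3% ± 2.72 in hypoxia. In sgXIST7 the share was 28.1% ± 2.78 in normoxia and 53.8% ± 3.23 in hypoxia, and in sgXIST9 24.7% ± 1.42 and 47.0% ± 2.22. The hypoxia libraries (42.7% to 56.8%) lay above all normoxia libraries (23.04% to 31.2%). Accessory subunits outside the member list (PHF1, EPOP, LCOR, LCORL and EZHIP) were left out of this share. Their summed level went from 124 to 170 CPM to 158 to 203 CPM in sgCtl and from 146 to 188 CPM to 216 to 272 CPM in sgXIST7. In sgXIST9 it went from 141 to 152 CPM to 157 to 165 CPM. A share over all accessory transcripts would therefore differ. The ratio of JARID2 to SUZ12 per kilobase went from 17.3% ± 2.47 to 66.4% ± 14.4 in sgCtl. It went from 13.8% ± 1.34 to 117% ± 28.5 in sgXIST7, and sgXIST9 moved from 16.6% ± 0.501 to 72.8% ± 9.01. These are transcript levels, and the amounts of protein in the complex were not measured.

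Of the catalytic subunits and EED, none passed in sgCtl. There, EZH2 gave a log2 fold change of -0.25 ± 0.19 SE (95% interval -0.65 to 0.14), EZH1 -0.08 ± 0.12 (-0.34 to 0.19) and EED -0.12 ± 0.12 (-0.38 to 0.15). In the sgXIST clones, EZH2 fell in hypoxia by 0.65 in sgXIST7 (SE 0.19, adjusted p = 0.0079) and by 0.67 in sgXIST9 (SE 0.19, adjusted p = 0.0062), and without the libraries numbered 3 by 0.79 and 1.00 (adjusted p = 3.6e-05 and 2.9e-06). Both calls rest on few libraries: leaving out any library of the sgXIST7 pair but hypoxia replicate 3 gave an adjusted p of up to 0.0453 (RLE normalization gave 0.0118), and leaving out sgXIST9 normoxia replicates 2 or 3 or hypoxia replicates 1 or 2 gave up to 0.0414. A fit of the 2 sgXIST9 groups alone gave 0.0268. EZH1 rose by 0.58 ± 0.12 in sgXIST7 (adjusted p = 6.7e-04) and by 0.73 ± 0.12 in sgXIST9 (adjusted p = 8.8e-05), and no hypoxia library overlapped a normoxia library of these clones. EED fell by 0.44 in sgXIST9 (SE 0.12, adjusted p = 0.0063), from 36.6 to 39.7 CPM to 26.3 to 30.4 CPM, a call lost without any 1 of 5 libraries, all but hypoxia replicate 2 (adjusted p up to 0.0283), without the libraries numbered 3 (0.0171), without the filter on low counts (0.0116) and under upper-quartile scaling (0.0216).

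In sgCtl, 1 member rose and 5 fell in hypoxia, where 18.8% of all genes were higher and 18.8% lower. In sgXIST7, 3 rose and 5 fell, where 23.5% of all genes were higher and 23.2% lower. In sgXIST9, 3 rose and 7 fell, where 23.1% of all genes were higher and 19% lower. The members' median log2 fold changes were -0.33, -0.37 and -0.63, compared with 0.02, 0.01 and 0.09 over all genes tested. Genes of cell division moved in the same comparisons: of 20 proliferation genes, 19 fell in hypoxia in sgCtl (median -1.28), 20 in sgXIST7 (median -2.12) and 20 in sgXIST9 (median -2.10). In hypoxia, 18 of them were lower in sgXIST7 than in sgCtl (median -0.89) and 11 in sgXIST9 (median -0.71). Of all genes, 13.7% and 8.24% were lower in these comparisons. In normoxia 3 and 2 of the proliferation genes were lower, against 6.1% and 6.6% of all genes. The part of the proliferation genes in the results for the PRC2 genes was not tested. In bulk samples, fewer dividing cells cannot be told apart from less RNA of these genes per cell.

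**Figure D4:**
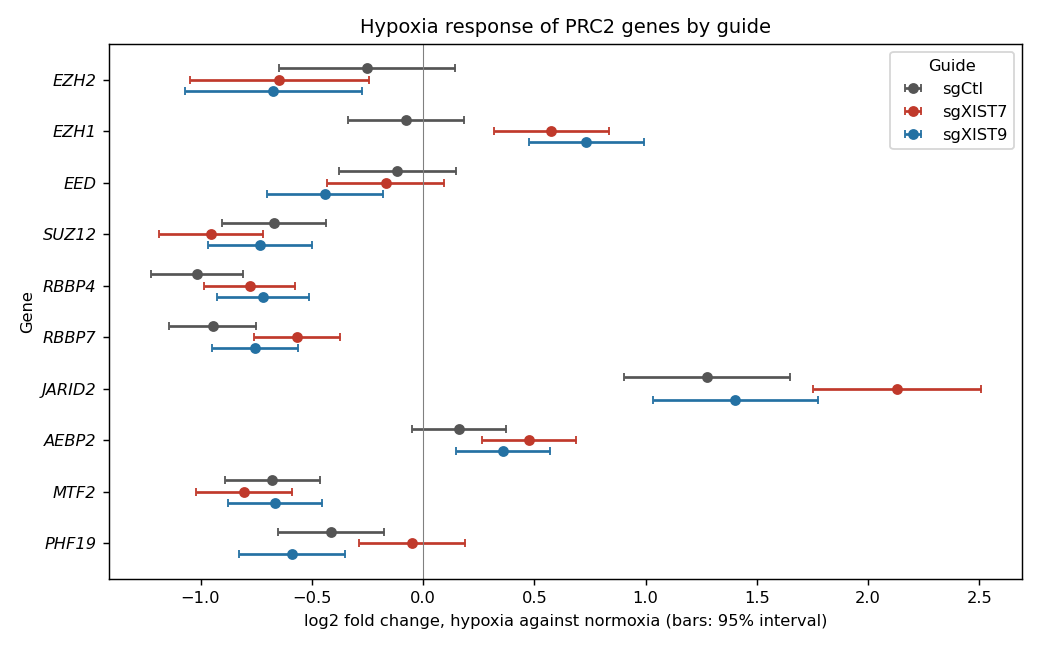
Log2 fold change of each PRC2 gene in hypoxia against normoxia, by guide. Points are the estimates from edgeR and bars are 95% intervals. JARID2 lies farthest to the right in each clone (1.28, 2.13 and 1.40), and the intervals of EZH1 in sgXIST7 and sgXIST9 (0.32 to 0.83 and 0.47 to 0.99) lie above that in sgCtl (-0.34 to 0.19).

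The response to hypoxia was then compared between clones, as the difference of the log2 fold changes. The response of EZH1 was higher than in sgCtl by 0.65 ± 0.17 SE in sgXIST7 (95% interval 0.28 to 1.02, adjusted p = 0.030) and by 0.81 ± 0.17 SE in sgXIST9 (0.44 to 1.18, adjusted p = 0.013). That of JARID2 was higher by 0.85 ± 0.25 SE in sgXIST7 (0.33 to 1.37, adjusted p = 0.040) and by 0.13 ± 0.25 SE in sgXIST9 (-0.39 to 0.65). These differences missed the threshold of 0.01, and 0 of 10 members passed in any of the 3 contrasts with edgeR. With an unadjusted p under 0.05 there were 5 members for sgXIST7 against sgCtl, 2 for sgXIST9 against sgCtl and 2 for sgXIST7 against sgXIST9, and DESeq2 called 1, 1 and 0. The background was low as well: 1.18% of all genes responded more and 0.984% less in sgXIST7 than in sgCtl, 0.756% and 0.502% in sgXIST9 than in sgCtl, and 0.087% in each direction in sgXIST7 than in sgXIST9.

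These contrasts depended on the libraries numbered 3. Without them, EZH1 (0.71 ± 0.18, adjusted p = 0.0071) and JARID2 (0.88 ± 0.16, adjusted p = 9.3e-04) passed in sgXIST7, and EZH1 (0.91 ± 0.18, adjusted p = 0.0022) and EZH2 (-0.76 ± 0.17, adjusted p = 0.0047) passed in sgXIST9. The background then rose to 8.69% of all genes more and 7.55% less responsive in sgXIST7, and to 5.86% and 4.06% in sgXIST9. Leaving out sgCtl hypoxia replicate 3 alone was enough for EZH1 (adjusted p = 0.0056 and 0.0025) and JARID2 in sgXIST7 (adjusted p = 0.0037). For EZH2 with all libraries, the response differed from sgCtl by -0.39 ± 0.27 in sgXIST7 (95% interval -0.96 to 0.17) and by -0.42 ± 0.27 in sgXIST9 (-0.98 to 0.14).

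The makeup of the methyltransferase transcripts differed between the groups. EZH1 made up 9.61% ± 0.698 (SD, n = 3) of the summed CPM per kilobase of EZH1 and EZH2 in sgCtl in normoxia, 10.4% ± 0.0709 in sgXIST9 and 23.4% ± 2.98 in sgXIST7. In sgXIST7 in normoxia EZH1 gave a log2 fold change of -0.05 ± 0.12 against sgCtl (adjusted p = 0.85), so that the higher share went with the level of EZH2, which lies in the lower stretch of chromosome 7 described above. In hypoxia the share was 10.9% ± 2.35 in sgCtl, 24.5% ± 6.34 in sgXIST9 and 41.8% ± 3.28 in sgXIST7. The sgXIST9 hypoxia libraries stood at 30.0%, 26.0% and 17.5%, the third again closest to sgCtl, and the sgXIST7 hypoxia libraries at 44.1%, 43.3% and 38.1%. EZH2 transcripts still exceeded those of EZH1 in every library, by 1.27 to 1.63 times in sgXIST7 in hypoxia compared with 8.68 to 10.2 times in sgCtl in normoxia. The sum of both was 81.8 ± 4.01 CPM per kilobase in sgCtl in normoxia, 65.4 ± 5.005 in sgXIST9 and 32.5 ± 0.297 in sgXIST7, and in hypoxia 69.6 ± 9.06, 48.1 ± 12.9 and 27.3 ± 3.90.

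**Figure D5:**
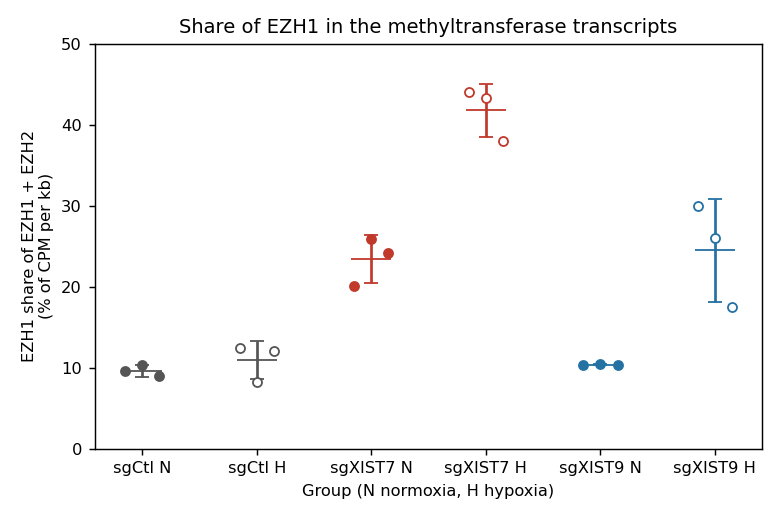
Share of EZH1 in the summed level of EZH1 and EZH2 (percent of CPM per kilobase) in each library of the 6 groups. Points are libraries, the dash is the mean of 3 and the bar is the SD. The share was 9.61% in sgCtl in normoxia and reached 41.8% in sgXIST7 in hypoxia.

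Relative to the scaffold SUZ12, the summed catalytic transcripts stood at 3.15 ± 0.377 per kilobase in sgCtl in normoxia, 2.66 ± 0.290 in sgXIST9 and 1.23 ± 0.161 in sgXIST7. In hypoxia these ratios were 4.23 ± 0.457, 3.22 ± 0.609 and 1.98 ± 0.313, higher than in normoxia without overlap of libraries in sgCtl and sgXIST7 and with overlap in sgXIST9. Relative to EED the ratios were 5.31 ± 0.613, 4.37 ± 0.313 and 2.82 ± 0.552 in normoxia and 4.86 ± 0.554, 4.42 ± 1.45 and 2.60 ± 0.429 in hypoxia, with overlapping libraries in each clone. In sgXIST7 in hypoxia the order of the subunits had changed: RBBP7 (103 ± 10.5 CPM per kilobase) and RBBP4 (20.4 ± 0.0732) stayed at the top, and JARID2 (16.03 ± 3.68), EZH2 (15.9 ± 3.13), PHF19 (14.6 ± 1.59) and SUZ12 (13.8 ± 0.642) followed with overlapping libraries. EZH1 (11.3 ± 0.922), AEBP2 (11.1 ± 1.02) and EED (10.5 ± 0.453) overlapped in the same way, and MTF2 was last at 8.41 ± 0.929. In sgXIST9 in hypoxia EZH2 (36.8 ± 13.1) remained second, and the 7 genes from SUZ12 (14.9 ± 1.92) down to AEBP2 (9.56 ± 0.572) overlapped with their neighbours.

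Over the 18 libraries, members that fell together in hypoxia were the most alike. Pearson's r of log2 CPM was 0.943 between RBBP4 and RBBP7, 0.893 between SUZ12 and RBBP4 and 0.853 between SUZ12 and MTF2. JARID2 ran against SUZ12 (r = -0.917), MTF2 (-0.888) and RBBP4 (-0.881). EZH2 was closest to EED (0.783) and MTF2 (0.684), and its r with RBBP7 was 0.0669. The genes most like EZH1 were CCDC7 (0.930), DUSP19 (0.911), the receptor tyrosine kinase gene AXL (0.908), ACOT11 (0.904) and RGL3 (0.904). The points differ in guide, oxygen and depth, and these values are descriptions.

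Other genes around PRC2 were counted from lists. Of 5 further accessory subunits, PHF1, LCOR and LCORL were tested. EZHIP, an inhibitor of PRC2, was at 0 counts in every library, and a level too low to be counted at this depth remains possible. In hypoxia LCORL fell in each clone (-0.74, -1.05 and -0.98 in sgCtl, sgXIST7 and sgXIST9), and in sgXIST7 PHF1, a Polycomb-like protein, rose by 1.38 ± 0.27 and LCOR by 0.76. The H3K27 demethylase KDM6B, which removes the mark that PRC2 places, rose in hypoxia by 1.97 ± 0.42 in sgCtl, 1.74 ± 0.40 in sgXIST7 and 1.77 ± 0.42 in sgXIST9 (adjusted p = 8.3e-04, 0.0013 and 0.0018), while the lowest adjusted p of KDM6A in any comparison was 0.028.

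PRC1, the partner complex that ubiquitylates histone H2A, had 23 of 24 subunits tested. In normoxia 1 fell in sgXIST9 against sgCtl, where 6.6% of all genes were lower. In hypoxia against normoxia, 4 rose and 3 fell in sgCtl, 12 rose and 3 fell in sgXIST7, and 7 rose and 3 fell in sgXIST9, with medians of 0.21, 0.54 and 0.30. Over all genes, 18.8%, 23.5% and 23.1% were higher and 18.8%, 23.2% and 19% lower, so that in sgCtl the PRC1 counts were at or below the background in both directions. RYBP, a subunit of the variant complexes, rose by 1.15 ± 0.25, 2.34 ± 0.26 and 1.47 ± 0.25, and PCGF6 fell by 1.38, 1.40 and 1.57 (SE 0.15 each). In sgXIST7 against sgCtl in hypoxia 5 PRC1 subunits rose and 3 fell (13.9% and 13.7% of all genes), among them CBX8 (1.10 ± 0.15), KDM2B (1.29 ± 0.20) and BMI1 (-1.58 ± 0.29). Of 5 H3K36 methyltransferases, whose mark opposes PRC2, 2 fell in hypoxia in each clone and 3 did not pass, with medians of -0.09, -0.0027 and -0.016. The 2 were NSD1 and NSD2 (-0.67, -0.63 and -0.55 for NSD1, and -0.91, -1.12 and -1.36 for NSD2). Of 7 tested genes of the H2A deubiquitinase, 1, 2 and 1 fell in hypoxia, near the share of all genes that were lower (18.8%, 23.2% and 19%).

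Counted singly, genes known as textbook targets of PRC2 did not move in 1 direction. The summed level of the listed genes was higher in every sgXIST library than in any sgCtl library of the same oxygen condition. In normoxia the sum was 280 to 313 CPM in sgCtl, 504 to 673 in sgXIST7 and 439 to 460 in sgXIST9. In hypoxia it was 205 to 339, 455 to 653 and 411 to 555 CPM. A sum is weighted to its most abundant genes. Of 25, 13 were tested. In normoxia, 3 rose and 2 fell in sgXIST7 against sgCtl, and 3 rose and 3 fell in sgXIST9, where 7.39% and 6.51% of all genes were higher and 6.1% and 6.6% lower. In hypoxia these counts were 4 and 4, and 4 and 3, where 13.9% and 9.65% of all genes were higher and 13.7% and 8.24% lower. HOXA11 was higher in both clones (0.429 ± 0.128 CPM in sgCtl, 1.65 ± 0.421 in sgXIST7 and 2.44 ± 0.323 in sgXIST9 in normoxia), with log2 fold changes of 1.95 ± 0.38 and 2.51 ± 0.38. HOXD13 was lower in both (2.39 ± 0.527 CPM, 0.267 ± 0.132 and 0.248 ± 0.0999), with log2 fold changes of -3.14 ± 0.47 and -3.27 ± 0.48. Both genes stood at few counts per library. Hypoxia moved 1 target up and 1 down in sgCtl, 2 up and 3 down in sgXIST7, and 0 up and 1 down in sgXIST9, where 18.8%, 23.5% and 23.1% of all genes were higher and 18.8%, 23.2% and 19% lower.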

How the data were processed

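RNA-seq was made from 18 libraries (stranded total RNA with rRNA depletion, paired-end). Per the labels and the study's methods, the authors trimmed reads with Trimmomatic, checked them with FastQC, used hisat2 for alignment to hg38, and obtained gene counts from featureCounts. Versions, annotation and strand setting are not given in the sources used here. The deposited values are raw counts, with no normalization.

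Of 28279 lines, 2 broken ones were left out. Genes were filtered with filterByExpr (minimum count 10, minimum total 15), which left 14938, scaled by TMM (factors 0.859 to 1.11) and fitted in 1 edgeR 4.0.16 quasi-likelihood model (robust, limma 3.58.1, R 4.3.3) over the 6 groups. P-values were adjusted by Benjamini-Hochberg over all genes, with a threshold of 0.01, and intervals are 95%. The exact permutation tests were two-sided. Total counts per library had a median of 17629434, and replicates differed by more than counting noise. The study states biological replicates, and p-values measure only the spread between these samples. Fits were tested on simulated data. Alternatives were DESeq2 1.42.0, other scalings and filters, smaller fits, a replicate block and leaving out libraries.

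All 10 members were named. Genes of other lists were named past the threshold with a log2 fold change beyond 1, and LCOR, LCORL, NSD1 and KDM6A were chosen after their values were seen. The 5 genes most like EZH2 and EZH1 were those with the highest Pearson's r. The members and lists were chosen with earlier results of these data known. The gene targeted by the sgXIST guides is not reported here.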

Additional observations from a re-analysis of the deposited data

Results flagged for a closer look

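The response of EZH1 to hypoxia differed from that of sgCtl by 0.65 in sgXIST7 (adjusted p = 0.030) and by 0.81 in sgXIST9 (adjusted p = 0.013), by edgeR's test of the difference itself. The response of JARID2 differed from that of sgCtl by 0.85 in sgXIST7 (adjusted p = 0.040). These 3 differences were listed because they had an adjusted p under 0.05, and all 3 missed the threshold of 0.01 used elsewhere.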

How the results depend on the processing

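No call on a member changed direction under any alternative run. With only the groups compared in the fit, the number of members past the threshold was 3 instead of 0 in sgXIST9 against sgCtl in normoxia, 1 instead of 5 in sgXIST7 and 0 instead of 2 in sgXIST9 against sgCtl in hypoxia, and 0 instead of 1 between the sgXIST clones in hypoxia. In hypoxia against normoxia it was 5 instead of 6 in sgCtl (PHF19 lost) and 8 instead of 10 in sgXIST9 (EZH2 and AEBP2 lost). Without a filter beyond 1 count, 1 instead of 2 passed in sgXIST7 in normoxia. At an adjusted p under 0.05, 1 member passed in sgXIST9 in normoxia, 5 in sgXIST9 in hypoxia, 3 between the sgXIST clones in hypoxia, and 2 (sgXIST7) and 1 (sgXIST9) in the response against sgCtl. DESeq2 called 1 in each of these responses, and upper-quartile scaling 1 in sgXIST9. Without the hypoxia libraries numbered 3 (chosen after seeing the data) 2 passed in each, and 2 between the sgXIST clones in hypoxia. The cause of these changes was not tested.

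Leaving out 1 library at a time gave 1 to 2 members (sgXIST7) and 0 to 0 (sgXIST9) against sgCtl and 1 to 1 between the sgXIST clones in normoxia, and 4 to 6, 0 to 3 and 1 to 2 in hypoxia. Hypoxia against normoxia gave 5 to 6, 7 to 8 and 7 to 10 in sgCtl, sgXIST7 and sgXIST9, and the response differences gave 0 to 2, 0 to 1 and 0 to 0.

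With a replicate block, 2 members instead of 1 passed between the sgXIST clones in hypoxia, and JARID2 passed there and in sgXIST7 against sgCtl (adjusted p = 0.0085 and 0.0040). Same-numbered libraries had a positive r in all 9 pairs in normoxia (0.0215 to 0.379). In hypoxia their r ran from -0.0676, between sgXIST7 and sgXIST9 replicates 2, to 0.566. For differently numbered libraries r ran from -0.566 to 0.474 in hypoxia and from -0.272 to 0.133 in normoxia. The ranges overlapped, though same-numbered libraries reached higher values. The numbers were not taken as pairs, and the main fit leaves any deviation shared by a number in place.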
